A study of Mus musculus with 9 samples.

Results

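The genes that take glucose to pyruvate, interconvert pyruvate and lactate, and pass pyruvate into the mitochondrion were examined in the midbrain of DJ-1-deficient mice. The 36 members were chosen by symbol for their place in this route, by a rule that used no measured value but was written with earlier results of these data known: 4 plasma membrane transporters of glucose and monocarboxylates, 11 enzymes of the first, ATP-consuming stage of glycolysis, 6 of the second, ATP-yielding stage, 2 lactate dehydrogenase subunits, 2 subunits of the mitochondrial pyruvate carrier, 5 components of the pyruvate dehydrogenase complex, and 6 kinases and phosphatases that switch that complex off and on. All 36 were among the 26602 genes with a count, and all 36 were among the 18127 genes that reached 10 counts in the 9 libraries together, which were the genes tested.

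Midbrain tissue that included the substantia nigra was sequenced from 4 DJ-1+/+ mice and 5 DJ-1-/- mice, with 1 library per animal and mice of 3 to 4 months. DJ-1-/- mice carried a targeted Park7 allele in every cell of the body, on a C57BL/6 background reached by several generations of backcrossing, and came from heterozygous parents. Each library counted molecules near the polyadenylated 3′ end of transcripts, tagged with unique molecular identifiers (UMIs) so that PCR copies are counted once. Counts of this kind do not grow with transcript length, and levels are given as UMI counts per 1000000 (cpm). Ranks and shares between genes are of counts as deposited, with the limits on highly counted genes and on genes with copies given beside them.

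In glycolysis, hexokinase traps glucose as its phosphate, phosphofructokinase commits it to breakdown, aldolase splits the sugar, and pyruvate kinase makes pyruvate with a gain of ATP. Lactate dehydrogenase turns pyruvate and NADH into lactate and NAD+, or the reverse, while the pyruvate dehydrogenase complex makes acetyl-CoA from pyruvate inside the mitochondrion and is turned off when its kinases phosphorylate it. In brain, astrocytes are known for glycolysis and lactate release, and neurons for the uptake of lactate and its oxidation. Bulk tissue mixes these cells, so fewer cells of a type and less RNA per cell cannot be told apart.

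Promoter sequences of 5 members are shown because Pgam1 had the smallest p between genotypes and the other 4 had the widest ranges between mice. Each window runs from 250 bases before to 50 bases after a RefSeq transcript start (GRCm38.p6), and 33 of the 36 members had a window, Pdp1, Slc2a3 and Slc16a7 having none in the table used. Capitals mark ACGTG on either strand (CACGT when read from the other strand), a form of the core of the hypoxia response element bound by HIF factors. Where both overlap they spell CACGTG, the E-box. The other form of that core, GCGTG, was neither marked nor counted.
Pgam1, chr19:41911621-41911920, plus strand: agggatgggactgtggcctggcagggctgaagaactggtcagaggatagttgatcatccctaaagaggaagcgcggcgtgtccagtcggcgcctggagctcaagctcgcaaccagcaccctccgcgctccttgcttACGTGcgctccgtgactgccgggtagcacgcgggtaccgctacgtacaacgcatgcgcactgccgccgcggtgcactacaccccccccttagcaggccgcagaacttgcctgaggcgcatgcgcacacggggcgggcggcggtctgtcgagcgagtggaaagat
Pgk1, chrX:106186850-106187149, plus strand: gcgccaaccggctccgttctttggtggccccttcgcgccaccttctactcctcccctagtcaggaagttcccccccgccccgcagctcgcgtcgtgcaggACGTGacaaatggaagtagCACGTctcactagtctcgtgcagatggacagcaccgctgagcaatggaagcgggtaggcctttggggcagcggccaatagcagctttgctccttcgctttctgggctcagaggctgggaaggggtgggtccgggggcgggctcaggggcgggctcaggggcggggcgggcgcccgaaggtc
Pfkfb2, chr1:130715772-130716071, minus strand: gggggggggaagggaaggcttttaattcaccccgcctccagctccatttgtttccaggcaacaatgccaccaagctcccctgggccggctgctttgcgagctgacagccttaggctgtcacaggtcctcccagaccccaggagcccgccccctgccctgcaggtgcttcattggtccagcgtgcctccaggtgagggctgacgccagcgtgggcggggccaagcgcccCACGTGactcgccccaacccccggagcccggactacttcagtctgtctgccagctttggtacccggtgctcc
Eno1, chr4:150236947-150237246, plus strand: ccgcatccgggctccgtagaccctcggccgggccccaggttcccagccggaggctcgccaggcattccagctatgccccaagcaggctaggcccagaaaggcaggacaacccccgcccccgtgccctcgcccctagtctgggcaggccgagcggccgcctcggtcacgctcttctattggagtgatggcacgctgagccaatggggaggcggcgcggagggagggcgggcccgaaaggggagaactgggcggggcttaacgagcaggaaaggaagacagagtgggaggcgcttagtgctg
Pdk4, chr6:5496229-5496528, minus strand: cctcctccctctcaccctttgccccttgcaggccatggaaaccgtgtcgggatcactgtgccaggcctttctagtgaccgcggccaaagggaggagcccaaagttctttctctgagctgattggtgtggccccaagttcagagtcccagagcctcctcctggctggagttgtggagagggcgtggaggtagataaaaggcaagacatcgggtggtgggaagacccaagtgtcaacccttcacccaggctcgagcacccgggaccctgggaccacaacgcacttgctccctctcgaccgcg
Pgk1 held 2 separate matches, Pgam1 held 1, and the printed Pfkfb2 window held the palindrome CACGTG. Pfkfb2 had 3 windows, and those not printed held 0 matches and 1 match. No match to ACGTG lay in the printed windows of Eno1 and Pdk4, nor in the other 2 Eno1 windows, and GCGTG was not sought in them. ACGTG was found in at least 1 window of 18 of the 33 members (54.5%), against 21.8% of the 27025 genes with a window, and CACGTG in 7 of the 33 (21.2%), against 8.09%. These matches describe letters only, and binding was not measured.

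The DJ-1+/+ libraries held between 841974 and 886085 counts, those of DJ-1-/- mice between 967751 and 1098125, and each DJ-1-/- library was the deeper (two-sided exact permutation test, p = 0.0159, which no split of 4 and 5 mice can go below), so depth and genotype cannot be told apart. A level of 3 counts, taken as the smallest that can be shown, was 2.73 to 3.56 cpm, for counting error only. Park7, the targeted gene, was counted 132, 105, 113 and 118 times in the DJ-1+/+ libraries and 23, 29, 14, 19 and 19 times in those of DJ-1-/- mice (log2 fold change −2.71, standard error 0.15, Benjamini-Hochberg adjusted p = 7.39e-08 in edgeR's quasi-likelihood test). Each DJ-1-/- library was thus far below each DJ-1+/+ library, and some counts remained. Y-linked Ddx3y was expressed in 2 of 4 DJ-1+/+ and 1 of 5 DJ-1-/- libraries. Dopaminergic neuron markers summed to well above 0 in each library, including Th and Slc6a3, although Pitx3 was at 0 counts in DJ-1+/+ mice 3 and 4 (10 genes, whose sum lay between 544 and 1026 cpm in DJ-1+/+ and between 813 and 1065 cpm in DJ-1-/- libraries). DJ-1+/+ mouse 1 stood apart in cerebellar markers (1335 cpm) and DJ-1+/+ mouse 4 in choroid plexus markers (1169 cpm). Counts were flat at the top, in that no gene exceeded 1040 to 1359 counts in a library. How identical tags were merged at highly counted genes is not given in the sources used here, and whether differences among such genes are understated was not tested.

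No member was called between the genotypes after adjustment over all 18127 genes (Benjamini-Hochberg adjusted p = 0.99997 for the lowest, edgeR's quasi-likelihood test), where 1 gene, Park7, or 0.00552% of all genes, was. Before adjustment 2 of the 36 members had a p under 0.05, against 2.83% of all genes tested. They were Pgam1 and Eno2, which act in neighbouring steps of the second stage of glycolysis, and both were higher in DJ-1-/- mice, as were 1.57% of all genes, while no member was lower with such a p, against 1.26% of all genes. None of the 36 members had cpm values without overlap between genotypes, against 1.25% of all genes, 0.662% higher and 0.585% lower in DJ-1-/- mice. Of the members, 19 lay above zero and 17 below, so that 52.8% were higher against 51.9% over all genes, and the median log2 fold change was 0.01 in both. Scaled by RLE size factors, 16 members lay above zero. Of the 36, 34 differed by less than 0.26 on the log2 scale, or 1.2-fold, and 23 by less than their own standard error. The 95% confidence interval stayed inside 1.5-fold in either direction for 29 members. It reached beyond 1.5-fold for the other 7, namely Hk2, Pfkfb2, Pgk1, Pgam1, Eno1, Pdk4 and Slc16a7. The interval included a fold of 1 for 6 of these 7, and for Pgam1 it did not. The share of all counts held by the 36 genes was 0.437% ± 0.0222 (SD, n = 4) in DJ-1+/+ and 0.441% ± 0.0127 (SD, n = 5) in DJ-1-/- mice.

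**Figure D1:**
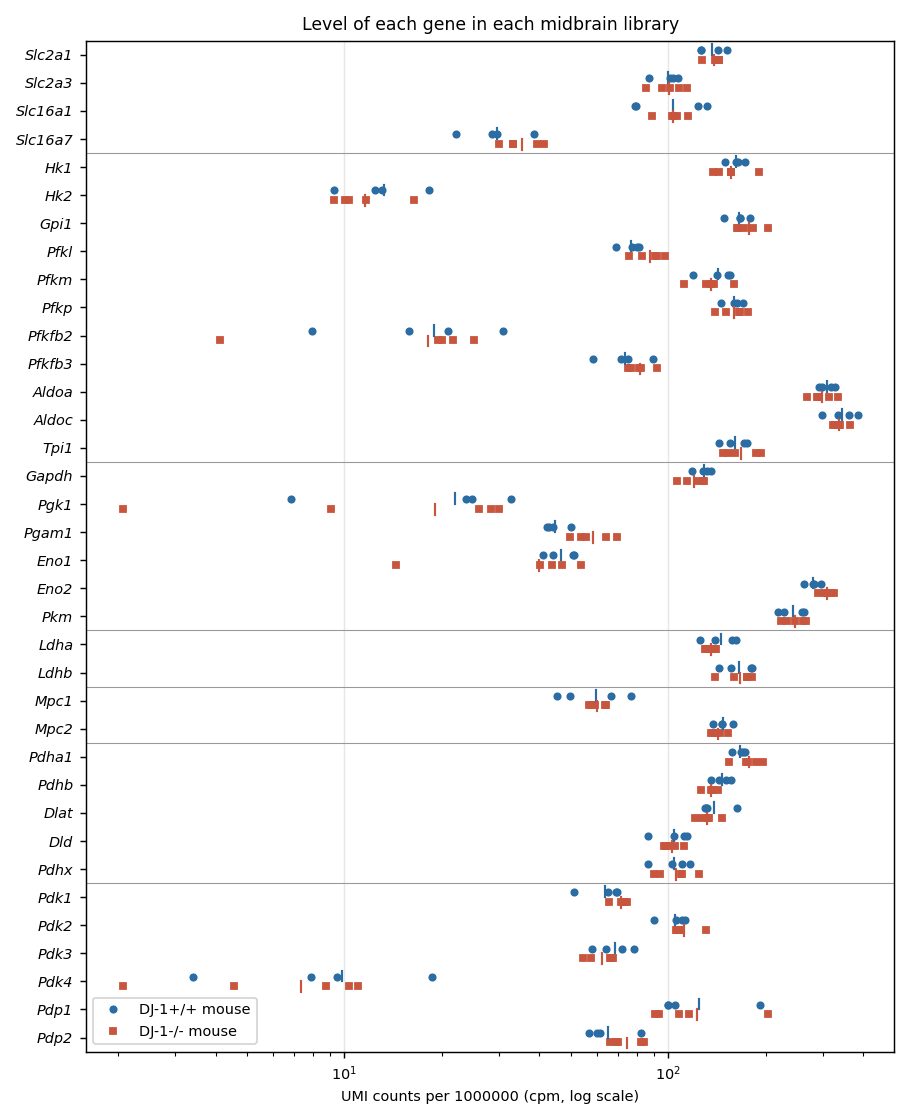
UMI counts per 1000000 (cpm, log axis) of each of the 36 genes, with DJ-1+/+ mice as circles, DJ-1-/- mice as squares, and a vertical tick at each group mean. The genotypes overlap for every gene, and Pgk1, Pdk4, Pfkfb2 and Eno1 have single libraries far to the left.

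**Figure D2:**
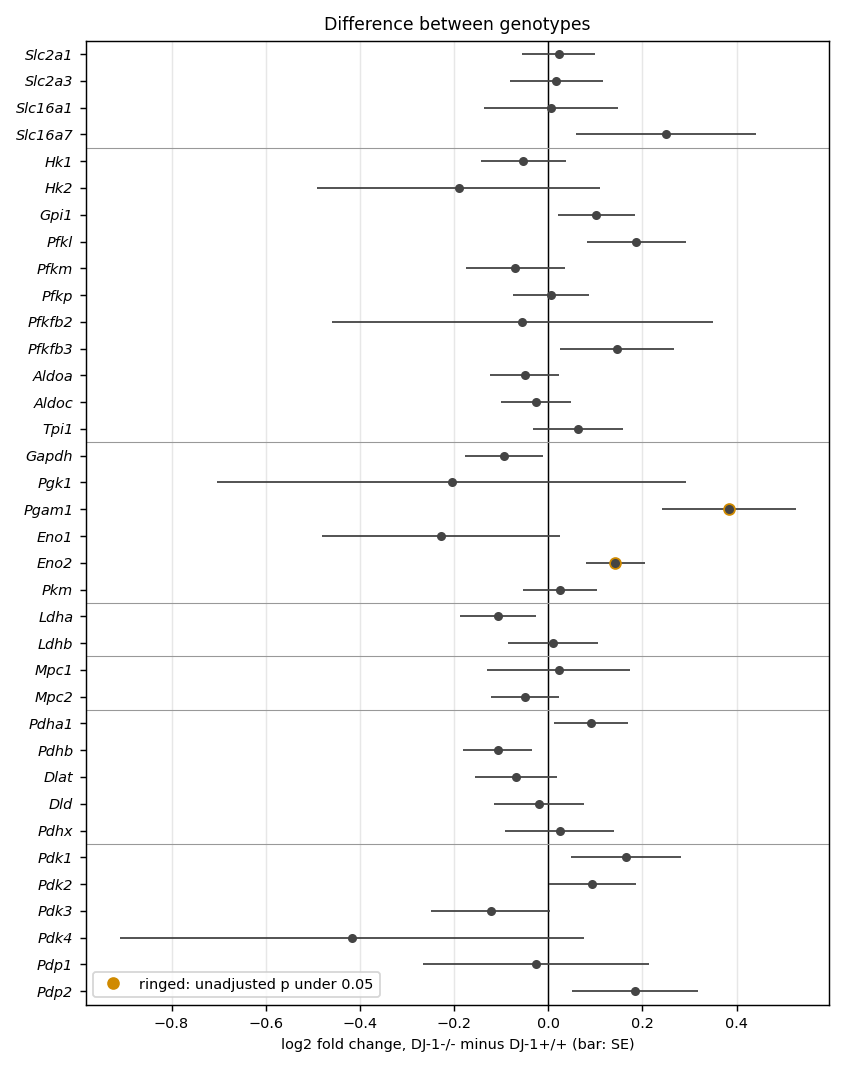
Log2 fold change of each gene, DJ-1-/- minus DJ-1+/+, with a bar of 1 standard error on each side. Larger orange points, called ringed in the key, mark genes with an unadjusted p under 0.05. Pgam1 and Eno2 are so marked, and 23 bars cross zero.

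Transporters bring glucose and monocarboxylates across the plasma membrane, and all 4 had a positive log2 fold change, with a median of 0.02 and none with an unadjusted p under 0.05, though that of Slc16a1 turned negative with RLE size factors. Slc2a1, the glucose transporter GLUT1 of brain capillaries and astrocytes, was at 137 ± 12.4 and 139 ± 6.89 cpm (SD, n = 4 DJ-1+/+ and n = 5 DJ-1-/-, the order used for all pairs of levels here). Slc2a3, the neuronal glucose transporter GLUT3, was at 99.6 ± 8.81 and 101 ± 11.1 cpm. The 2 glucose transporters were thus near each other, with Slc2a1 holding 57.8% ± 1.64 of their joint counts in DJ-1+/+ and 58.0% ± 2.92 in DJ-1-/- mice. Slc16a1, the lactate carrier MCT1, was at 103 ± 28.1 and 103 ± 9.42 cpm. Slc16a7, the lactate carrier MCT2 of neurons, had 24, 26, 19 and 34 counts in DJ-1+/+ and 33, 43, 40, 29 and 34 in DJ-1-/- mice. Its log2 fold change was 0.25 (standard error 0.19, unadjusted p = 0.208), and in cpm DJ-1+/+ mouse 4 lay inside the range of the DJ-1-/- mice.

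Of the 11 enzymes of the first stage, 5 had a positive and 6 a negative log2 fold change, the median being −0.03. Hk1, the hexokinase that brain mostly uses, held 92.5% ± 1.71 and 93.0% ± 1.83 of the joint counts of Hk1 and Hk2. Hk2, an inducible hexokinase, had 11, 16, 8 and 11 counts in DJ-1+/+ and 10, 18, 10, 9 and 12 in DJ-1-/- mice. These ranges coincided almost fully, and the interval of its fold change ran from 0.564 to 1.36. Gpi1, which converts glucose 6-phosphate to fructose 6-phosphate, was at 165 ± 11.99 and 177 ± 16.4 cpm, a level that is uncertain because 3 copies of its 3′ end held 1072 counts against 1466 on Gpi1.

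Phosphofructokinase was spread over 3 isozymes. Pfkp, the platelet form, held 42.2% ± 2.11 and 41.8% ± 2.38 of their counts, Pfkm, the muscle form, 37.4% ± 2.75 and 35.2% ± 2.49, and Pfkl, the liver form, 20.4% ± 1.94 and 23.0% ± 2.82. Pfkl had 58, 68, 69 and 72 counts in DJ-1+/+ and 83, 83, 88, 89 and 100 in DJ-1-/- mice. Counts did not overlap, but library depth differed in the same direction, and in cpm the genotypes overlapped (log2 fold change 0.19, standard error 0.11, unadjusted p = 0.0959). Pfkfb3, which makes the activator fructose 2,6-bisphosphate, was at 73.6 ± 12.7 and 81.4 ± 6.72 cpm and exceeded Pfkfb2, a second enzyme of that kind, in every library. The 3′ end of Pfkfb2 lies within Gm29427, an annotated gene of the same strand with 0 counts. Whether reads shared with Gm29427 were left out of the Pfkfb2 count was not tested.

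Aldolase was the most highly counted step of the route in counts as deposited. This order, and the rank of Aldoc below, are limited by the flat top of the counts. The order is also limited by copies of Gapdh, Eno1 and Eno2. Aldoc, the aldolase C that marks astrocytes in brain, had 303, 293, 330 and 264 counts in DJ-1+/+ and 362, 359, 329, 325 and 331 in DJ-1-/- mice, or 344 ± 36.9 and 337 ± 15.5 cpm, and ranked 44th of the 18127 genes tested. Aldoa, aldolase A, had 275, 257, 273 and 264 counts in DJ-1+/+ and 334, 317, 279, 303 and 274 in DJ-1-/- mice, or 309 ± 16.3 and 298 ± 25.97 cpm. Both overlapped between genotypes on the cpm scale, and Aldoc held 52.6% ± 1.98 and 53.1% ± 1.29 of the pair. Aldoa has 10 copies of its 3′ end, which held 29 counts, and no such copy of Aldoc was found. Tpi1, which interconverts the triose phosphates, was at 161 ± 14.6 and 168 ± 20.3 cpm, and 3 pseudogene copies of its 3′ end held 0 counts.

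Among the 6 enzymes of the second stage, Pgam1 and Eno2 gave the 2 smallest p-values of all 36 members. Pgam1, phosphoglycerate mutase, lies on chromosome 19 from 41911923 to 41918660 on the plus strand (GENCODE M21, GRCm38). It had 36, 37, 43 and 39 counts in DJ-1+/+ and 64, 61, 52, 67 and 51 in DJ-1-/- mice. The groups were separate in counts, yet in cpm they ran from 42.1 to 50.03 and from 49.7 to 69.2, where DJ-1-/- mouse 5 lay just under DJ-1+/+ mouse 3. The mean was 44.7 ± 3.63 cpm in DJ-1+/+ against 58.4 ± 7.998 cpm in DJ-1-/- mice, a log2 fold change of 0.38 (standard error 0.14) or 1.30-fold with an interval from 1.06 to 1.61, and the unadjusted p was 0.0156 (adjusted p = 0.99997). Without DJ-1-/- mouse 4, the highest, the log2 fold change was 0.30 and the unadjusted p 0.0520. Eno2, the neuronal enolase on chromosome 6 from 124760053 to 124769673, had 220, 260, 242 and 247 counts in DJ-1+/+ and 317, 338, 280, 313 and 312 in DJ-1-/- mice. Its level was 279 ± 14.0 and 308 ± 13.3 cpm, a log2 fold change of 0.14 (standard error 0.06, unadjusted p = 0.0378, adjusted p = 0.99997), and the genotypes overlapped in cpm at 261 to 295 against 289 to 323. The call at an unadjusted p of 0.05 was kept in 18 of 21 alternative analyses for Pgam1 and in 5 of 21 for Eno2. Eno2 is itself a neuronal gene. The sum of 10 other neuronal markers ran from 2667 to 2959 cpm over the DJ-1+/+ and 2650 to 2846 cpm over the DJ-1-/- libraries. The sum of 10 dopaminergic markers averaged 748 cpm (544 to 1026) in DJ-1+/+ and 934 cpm (813 to 1065) in DJ-1-/- mice. The part of neuronal content in the Eno2 difference was not tested.

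Other enzymes of this stage did not pass even the unadjusted test. Gapdh, which makes the first NADH of the route, was at 128 ± 7.37 and 120 ± 9.40 cpm, and Pkm, pyruvate kinase, at 242 ± 22.3 and 246 ± 18.3 cpm. The Gapdh value is uncertain, since 243 annotated pseudogenes match its 3′ end at 90% identity or more over at least 100 bases, and the 249 such copies together held 1279 counts against 1054 on Gapdh. Eno1, the widely expressed enolase, had 37, 36, 44 and 45 counts in DJ-1+/+ and 47, 44, 52, 14 and 45 in DJ-1-/- mice. DJ-1-/- mouse 4 alone was low, and the log2 fold change of −0.23 had a standard error of 0.25. Eno1 also has 7 pseudogenes matching its 3′ end, with 515 counts on its copies against 364 on Eno1. Pkm has 9 pseudogene copies of its 3′ end, which held 2 counts. Eno1 lies 648 kb from Park7 on chromosome 4, and whether flanking sequence of the targeted allele reaches it was not tested. Sequence at the 3′ end of Eno2 recurs in 9 other genes, none of them an annotated pseudogene, which held 3349 counts. The 3′ ends of Pfkp, Tpi1, Gapdh, Pdha1 and Mpc1 lie within genes of the other strand (Pitrm1, Spsb2, Iffo1, Map3k15 and 4930506C21Rik), whose reads cannot be told apart from theirs unless strand was used, which is not given in the sources used here. Of the joint counts of Eno1 and Eno2, Eno2 held 85.7% ± 1.53 and 88.6% ± 4.26, and the highest share, 95.7%, was that of DJ-1-/- mouse 4. The difference of 2.94 percentage points was 1.16 without that mouse.

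Counts of both lactate dehydrogenase subunits were nearly equal. Pseudogenes matching the 3′ end number 23 for Ldha, holding 4 counts, and 1 for Ldhb, holding 13. Whether such copies lower the count of either subunit was not tested. Ldha, the subunit that predominates in glycolytic tissue, had 132, 142, 120 and 111 counts in DJ-1+/+ and 140, 153, 126, 126 and 140 in DJ-1-/- mice (log2 fold change −0.11, standard error 0.08, unadjusted p = 0.214). Ldhb, the subunit that predominates in oxidative tissue, had 153, 137, 155 and 127 counts in DJ-1+/+ and 181, 192, 135, 154 and 180 in DJ-1-/- mice (log2 fold change 0.01, standard error 0.09). Ldhb held 53.1% ± 3.001 of the pair in DJ-1+/+ and 55.0% ± 1.91 in DJ-1-/- mice, with overlap. The mitochondrial pyruvate carrier, through which pyruvate reaches the matrix, is built from Mpc1 and Mpc2. Mpc1 was at 59.6 ± 14.6 and 60.4 ± 3.36 cpm and Mpc2 at 147 ± 8.44 and 142 ± 7.09 cpm, so that the mean counts of Mpc2 exceeded those of its partner in both genotypes. Mpc1 has 3 pseudogene copies of its 3′ end, which held 0 counts, and no such copy of Mpc2 was found.

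The 5 components of the pyruvate dehydrogenase complex lay between 102 and 177 cpm in their genotype means, 2 higher and 3 lower in DJ-1-/- mice. Pdha1, the E1 alpha subunit that carries the regulatory phosphorylation sites, was at 167 ± 6.90 and 177 ± 15.9 cpm. Pdhb, the E1 beta subunit, had 121, 119, 134 and 133 counts in DJ-1+/+ and 137, 151, 122, 138 and 139 in DJ-1-/- mice (log2 fold change −0.11, standard error 0.07, unadjusted p = 0.206). Dlat, the E2 acetyltransferase, was at 139 ± 16.0 and 132 ± 9.54 cpm, Dld, the E3 dehydrogenase shared with other complexes, at 104 ± 12.5 and 102 ± 6.25 cpm, and Pdhx, which binds E3 to the core, at 104 ± 13.0 and 106 ± 13.9 cpm. Counts of the complex were therefore of one order, with E1 above Dld and Pdhx.

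The kinases that inactivate the complex differed in level, and none had an unadjusted p under 0.05 between the genotypes. Pdk2 held the largest share of kinase counts (42.5% ± 2.61 and 44.1% ± 3.003), followed by Pdk3 (27.6% ± 2.87 and 24.7% ± 1.58) and Pdk1 (25.95% ± 4.43 and 28.3% ± 2.26), and Pdk4, induced by fasting in many tissues, held 3.90% ± 2.27 and 2.90% ± 1.53. The order of Pdk1 and Pdk3 was not the same in both genotypes, and their shares overlapped. Pdk1, a hypoxia-responsive kinase, had 43, 61, 56 and 61 counts in DJ-1+/+ and 73, 72, 72, 69 and 75 in DJ-1-/- mice, separate in counts but overlapping in cpm (log2 fold change 0.17, standard error 0.12, unadjusted p = 0.185). Of the phosphatases that reactivate the complex, Pdp2 had 48, 53, 53 and 73 counts in DJ-1+/+ and 69, 77, 80, 64 and 86 in DJ-1-/- mice. Here DJ-1+/+ mouse 4 was within the DJ-1-/- range, and the log2 fold change was 0.18 (standard error 0.13, unadjusted p = 0.188).

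**Figure D3:**
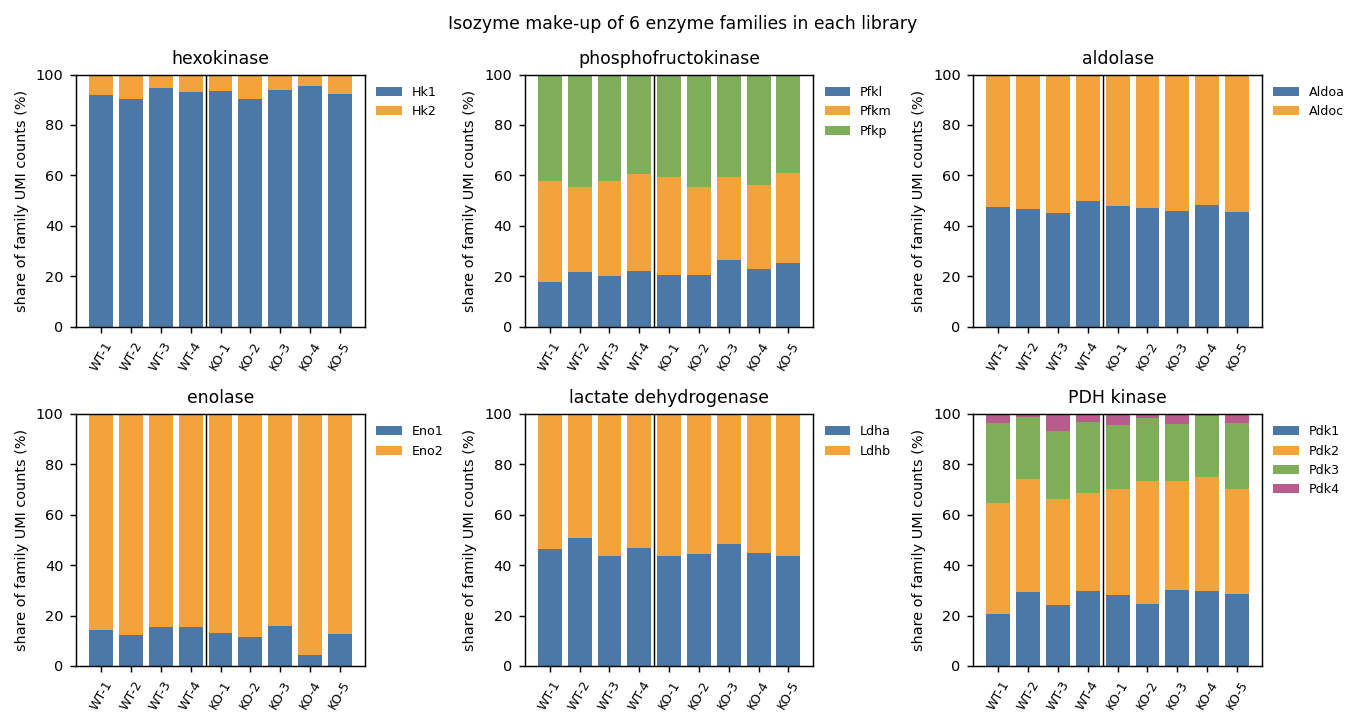
Share of the summed UMI counts of 6 enzyme families held by each isozyme (%, stacked to 100) in each of the 9 libraries, with a vertical line between DJ-1+/+ (WT) and DJ-1-/- (KO) mice. Families hold only the genes in each key. Hk1 and Eno2 hold most of their pair in every library, and no share separates the genotypes.

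Individual mice differed more than genotypes did for a few members, which were singled out once their values were known. Pgk1, phosphoglycerate kinase, had 20, 6, 28 and 22 counts in DJ-1+/+ and 26, 10, 29, 2 and 29 in DJ-1-/- mice, a 15.8-fold range in cpm. The low end of that range, 2 counts in DJ-1-/- mouse 4, was under the 3 counts taken as the smallest that can be shown. Pfkfb2 had 26, 7, 18 and 14 counts in DJ-1+/+ and 25, 22, 21, 4 and 20 in DJ-1-/- mice. Pdk4 had 8, 3, 16 and 7 counts in DJ-1+/+ and 11, 5, 10, 2 and 9 in DJ-1-/- mice, so its lowest libraries were at or under 3 counts. In all 3 genes, and in Eno1, DJ-1+/+ mouse 2 was the lowest DJ-1+/+ count and DJ-1-/- mouse 4 the lowest DJ-1-/- count. The genotype differences of these genes had large errors, with log2 fold changes of −0.21 ± 0.50 for Pgk1, −0.05 ± 0.40 for Pfkfb2 and −0.42 ± 0.49 for Pdk4 (± standard error). DJ-1+/+ mouse 2 was low for many members, being the lowest of its genotype for 18 and the highest for 5. The members together held 0.412% of its counts, the lowest share of all libraries. DJ-1-/- mouse 4 was not low throughout, being the lowest of its genotype for 9 members and the highest for 6. Its share of 0.441% lay inside the DJ-1-/- range of 0.421% to 0.457%. In DJ-1+/+ mouse 2 the summed oligodendrocyte markers were the lowest of all libraries (2198 cpm, others 2413 to 2886). Dopaminergic markers were the highest of their genotypes in DJ-1+/+ mouse 2 (1026 cpm) and DJ-1-/- mouse 4 (1065 cpm). Blood markers were likewise the highest of their genotypes in these 2 mice (664 and 525 cpm). Choroid plexus markers were the lowest of their genotypes in the same 2 mice (377 and 390 cpm). Astrocyte markers in DJ-1+/+ mouse 2 were the lowest of all libraries (1672 cpm), while DJ-1-/- mouse 4, at 1767 cpm, lay inside the range of its genotype. The part of any of these cell types in the low counts was not tested. Without both libraries, 10 members rather than 19 lay higher in DJ-1-/- mice and none had an unadjusted p under 0.05.

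**Figure D4:**
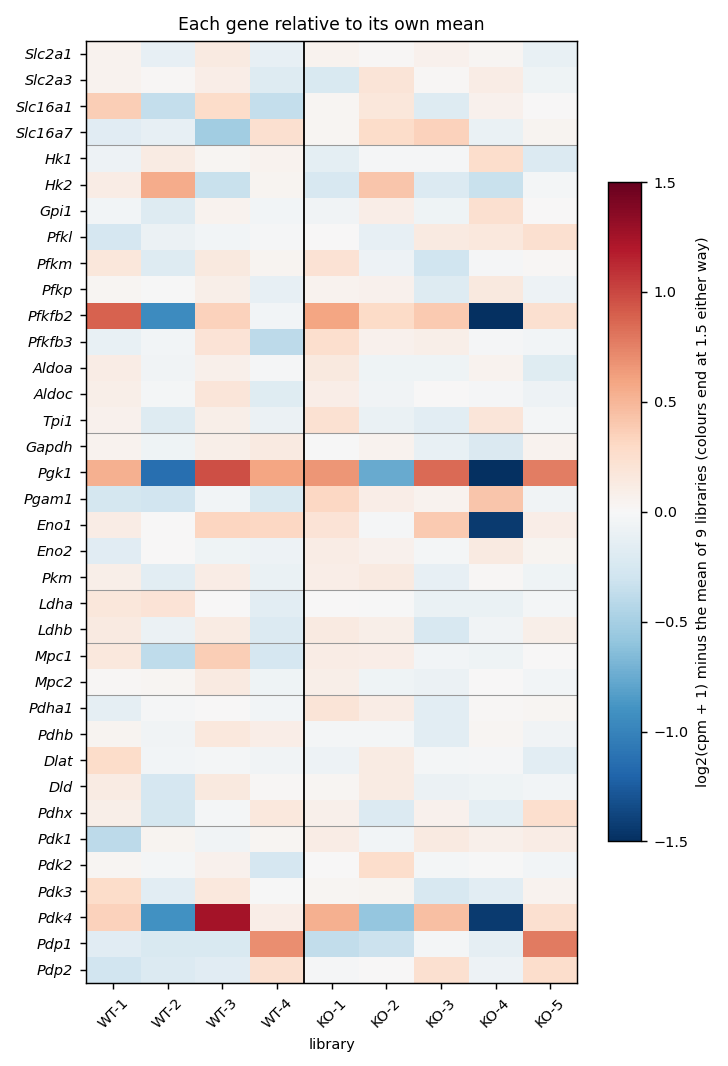
Log2(cpm + 1) of each gene in each library minus the mean of the 9 libraries, in colours that end at 1.5 either way, for DJ-1+/+ (WT) and DJ-1-/- (KO) mice. The darkest blue cells are Pgk1, Pfkfb2, Eno1 and Pdk4 in KO-4. Lighter blue marks Pgk1, Pfkfb2 and Pdk4 in WT-2 and Pgk1 and Pdk4 in KO-2. Red cells include Pdk4 and Pgk1 in WT-3, Pfkfb2 in WT-1, and Pdp1 in WT-4 and KO-5.

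Pdp1, the other phosphatase of the complex, had 88, 88, 86 and 170 counts in DJ-1+/+ and 91, 103, 112, 104 and 208 in DJ-1-/- mice. The 1 high mouse in each genotype, DJ-1+/+ mouse 4 at 192 cpm and DJ-1-/- mouse 5 at 203 cpm, stood above the others at 91.1 to 116 cpm, and the log2 fold change between genotypes was −0.03 (standard error 0.24). The same 2 libraries had the highest sums of 10 thalamic marker genes, a list written after the values were seen, with 1806 and 1695 cpm against 541 to 879 cpm in the other 7. No gene of that list was at 0 counts. The part of thalamic tissue in the Pdp1 level was not tested. Variance between mice exceeded 2 times counting error for 6 members, Pdp1, Pgk1, Pfkfb2, Eno1, Slc16a1 and Pdk4, and fell below counting error for 16. Over all 12409 genes with at least 100 counts, 20.4% exceeded 2 times counting error, so the members' 6 of 36 was not above that share. Pdk4, with 71 counts, is not among those 12409 genes. The median ratio was 1.12 over the members and 1.11 over the 12409 genes. Over the 2442 genes with 100 to 150 counts a library it was lower, at 0.877, and 19 members averaged 100 or more counts a library.

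**Figure D5:**
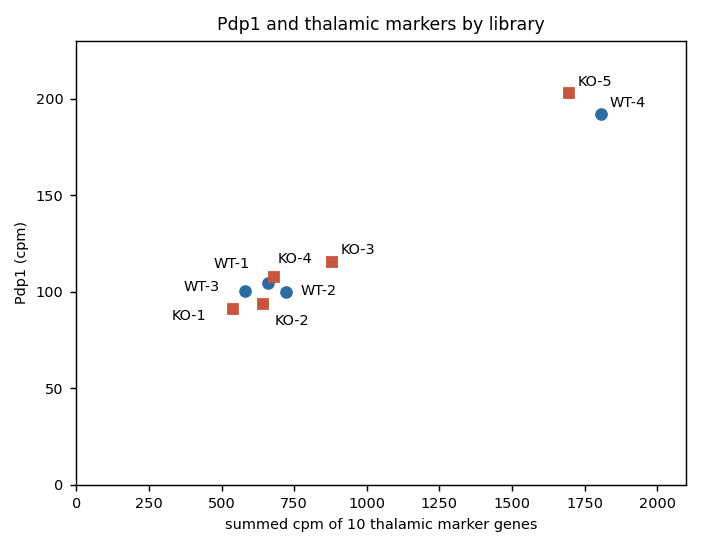
Pdp1 (cpm) against the summed cpm of 10 thalamic marker genes in each library, circles for DJ-1+/+ and squares for DJ-1-/- mice. WT-4 and KO-5 lie apart at 192 and 203 cpm, and the other 7 libraries lie between 91.1 and 116 cpm.

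A wider list of 60 genes in glycogen, pentose phosphate, gluconeogenic, malate-aspartate and related steps was read from the same fit, and 51 passed the filter on low counts. Of these, 30 had a positive and 21 a negative log2 fold change, the median being 0.02, and 0 had an unadjusted p under 0.05 against 2.83% of all genes tested by edgeR (0 with an adjusted p under 0.05). None of the 36 members and none of these 51 genes was called between the genotypes after adjustment.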

How the data were processed

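Midbrain RNA of 4 DJ-1+/+ (labelled WT) and 5 DJ-1-/- (labelled DJ-1 KO) mice was measured by 3′ mRNA-seq with UMIs, 1 library per mouse. The authors deposited whole-number UMI counts per Ensembl gene without normalization. The submitters' processing notes name fastp 0.20.0, STAR 2.7.3a, featureCounts 2.0.0 (Subread), UMI-tools 1.0.0 and GRCm38, with no role or order. The use of strand and the way UMIs were merged are not given in the sources used here. Groups and replicate numbers come from the sample titles.

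Libraries were joined by identifier, a gene not listed having 0 counts, and 26576 of the 26602 genes took symbols and positions from GENCODE M21. Genes reaching 10 counts over 9 libraries were fitted with edgeR 4.0.16 in R 4.3.3 (TMM, estimateDisp, glmQLFit and glmQLFTest, genotype as the only term, Benjamini-Hochberg adjustment over 18127 genes). The standard error is the log2 fold change divided by the square root of F, and 95% intervals use the test's degrees of freedom. Depth differed between genotypes, so that TMM and cpm scaling enter each comparison. Promoters are from RefSeq, and copies of 3′ ends were sought with blastn 2.17.0 in transcripts.

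Members and lists were chosen with earlier results of these data known. All 36 members are named, with counts in every library for the 8 smallest p-values, any member without overlap, Hk2, Pdp2 and the aldolase, enolase and lactate dehydrogenase pairs. Hk2 and Pdp2 were included because the authors reported both as changed in DJ-1-/- mice, Hk2 as lower and Pdp2 as higher. Of the other pathway genes, those with an unadjusted p under 0.05 were to be named. Counts of Pgk1, Pfkfb2, Pdk4 and Pdp1 and the thalamic list were added after values were seen. Alternatives were RLE size factors, library totals, DESeq2 1.42.0, limma-voom (limma 3.58.1), other filters on low counts, a block for the replicate number, a covariate for Xist, thinned libraries, and libraries left out singly or in pairs. The script was tested on simulated data.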

Additional observations from a re-analysis of the deposited data

Results flagged for a closer look

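Values of single mice that stood apart from the others of their genotype were sought in 74 groups of 4 or 5 mice (each member and Park7 in each genotype) with Dixon's criterion, which chance passes in about 1 of 20 groups, or 3.7 here, and 6 were found. Pdp1 stood apart in DJ-1+/+ mouse 4 at 192 cpm (others 100.0 to 105) and in DJ-1-/- mouse 5 at 203 cpm (others 91.1 to 116). Pfkfb2 was low in DJ-1-/- mouse 4 at 4.13 cpm (others 19.5 to 25.0). Dlat was high in DJ-1+/+ mouse 1 at 163 cpm (others 130 to 131), and Pdk2 in DJ-1-/- mouse 2 at 130 cpm (others 105 to 108). Slc2a1 was low in DJ-1-/- mouse 5 at 127 cpm (others 139 to 143).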

How the results depend on the processing

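The adjusted call held for no member in any of the 21 alternatives, and 17 members kept their sign in each, while 19 changed sign in at least 1. Pgam1 stayed positive at 0.28 to 0.44 and Eno2 at 0.10 to 0.17. The number of members with an unadjusted p under 0.05, 2 as reported, was 1 with RLE size factors, with DESeq2, without a filter on low counts, with Xist as a covariate and with thinned libraries, and 0 without DJ-1+/+ mice 1 and 4. With the replicate number as a block (replicate block), 1 member had such a p, 8 genes an adjusted p under 0.05, and Ldhb (−0.0166) and Pdhx (−0.0454) turned sign. No pairing by replicate number was seen. Deviations of same-numbered mice correlated at 0.29, 0.06, −0.10 and −0.18, with 1 of 4 DJ-1+/+ and 0 of 4 DJ-1-/- libraries closest to their own number. With so few pairs, this check cannot show that pairing was absent. Over all genes, the count with an unadjusted p under 0.05 was 513, 235 with DESeq2 and 802 without a filter, and that with an adjusted p under 0.05 was 1 and, without a filter, 36. With RLE size factors, the log2 fold changes that turned sign were Pfkp −0.00520, Ldhb −0.000453 and Slc16a1 −0.00554. With DESeq2, the log2 fold changes that turned sign were Pfkp −0.00530, Ldhb −0.00121 and Slc16a1 −0.00876. With at least 10 counts required in at least 4 libraries, the log2 fold changes that turned sign were Pfkp −0.00102 and Slc16a1 −0.00124. With Xist as a covariate, the log2 fold changes that turned sign were Pfkp −0.0185, Pfkfb2 0.15, Dld 0.00214, Pdp1 0.25 and Slc2a3 −0.0116. With libraries thinned to 841974 counts, the log2 fold changes that turned sign were Ldhb −0.00462, Slc2a1 −0.0117 and Slc2a3 −0.0447. Without DJ-1+/+ mice 1 and 4, the log2 fold changes that turned sign were Pfkp −0.0370, Pfkfb2 0.33, Pfkfb3 −0.0106, Ldhb −0.0105, Dlat 0.0152, Dld 0.0384, Pdp1 0.29, Slc2a3 −0.0432 and Mpc1 −0.0101. With 1 library left out, or 2 (DJ-1+/+ mouse 2 with DJ-1-/- mouse 4, and DJ-1+/+ mouse 4 with DJ-1-/- mouse 5, both pairs chosen after seeing the data), 0 to 2 members had an unadjusted p under 0.05, 10 to 23 lay higher in DJ-1-/- mice, and 1 to 2 genes had an adjusted p under 0.05. The number of members with an unadjusted p under 0.05 was 0 without DJ-1-/- mouse 4 and without the first pair, which also gave the 10. Without DJ-1+/+ mouse 2 alone 12 members lay higher. The log2 fold changes that turned sign in these fits ran as follows over them: Hk2 (−0.35 to 0.0615), Gpi1 (−0.000845 to 0.14), Pfkp (−0.0438 to 0.0519), Tpi1 (−0.0329 to 0.11), Pkm (−0.0279 to 0.0649), Ldhb (−0.0770 to 0.0678), Pdhx (−0.0611 to 0.0844), Slc2a1 (−0.0255 to 0.0726), Slc2a3 (−0.0432 to 0.0701), Slc16a1 (−0.12 to 0.14), Mpc1 (−0.0929 to 0.17), Pfkfb2 (−0.31 to 0.28), Dlat (−0.11 to 0.0183), Dld (−0.10 to 0.0263), Aldoc (−0.0891 to 0.0296), Pgk1 (−0.51 to 0.0628), Pdk4 (−0.71 to 0.0784) and Pdp1 (−0.30 to 0.27). Pdk4 had no value where at least 10 counts were required in at least 4 libraries. With a single library left out, the difference in isozyme share (percentage points, DJ-1-/- minus DJ-1+/+) turned sign for Hk1, Hk2, Pfkp, Pfkfb2, Pfkfb3, Aldoa, Aldoc, Pdk4, Slc2a1, Slc2a3, Slc16a1 and Slc16a7, ran from −5.92 to 0.96 for Pfkfb2, and from 1.16 to 4.01 for Eno2. The cause of these turns was not tested. Depth limits the low members most: the lowest member, Pdk4, had 71 counts over the 9 libraries.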
